A study of Mus musculus with 7 samples.

Results

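Integrins are receptors of 1 alpha and 1 beta chain that bind extracellular matrix or other cells, and syndecans are membrane proteoglycans whose heparan sulfate chains bind matrix and growth factors. All 26 integrin chains and the 4 syndecans of the mouse were followed in mature white adipocytes, 30 genes among the 57010 gene identifiers of the deposited count table. They were chosen by family name. Counts came from 3 FFA2 fl/fl mice (floxed controls) and 4 Adipoq-F2-KO mice, which carry the same floxed alleles together with an adiponectin-promoter Cre transgene that deletes FFA2 in adipocytes only. All 7 were untreated, chow-fed males, and their labels give an age of 20 weeks, while the study's methods follow its chow cohort to a later age. Those methods describe mice of both genotypes as housed together from birth up to a younger age. The labels do not tie a sample to a litter. The cells were released from perigonadal fat with collagenase, and cells of other kinds that stay with such a preparation keep FFA2 in both genotypes. The question was how integrins for fibronectin, collagen, laminin and leukocyte ligands compared between the genotypes, and where Itga5 and Sdc4 stood among them.

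An alpha chain reaches the cell surface only together with a beta chain. The beta1 chain pairs with most alpha chains and so serves receptors for fibronectin, collagen and laminin alike, whereas beta2 pairs only with the alpha chains of leukocytes. The alpha5 chain with beta1 is the classical fibronectin receptor, which recognises the RGD peptide motif, and syndecan-4 binds the heparin-binding region of the same ligand and joins it in focal adhesions. In fat, the matrix around each adipocyte contains laminin, collagens and fibronectin.

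Total counts lay between 30478997 and 39992605 per library, and the 30 genes together took 0.163% to 0.205% of them. Of counts from 1 to 49, 85.5% to 88.8% were even, a pattern that counting each mate of a pair produces. A count of 0 then allows up to 0.15 to 0.197 CPM, counts scaled to the library total, from 3 fragments or 6 counts, which covers counting error only. Genes of the mitochondrial chromosome took 4.41% to 5.77% of counts in the floxed libraries and 6.61% to 10.3% in the Adipoq-F2-KO libraries, without overlap, so this share moved with the genotype. Its part in the differences below was not tested. With these genes and the most abundant row removed from the counts, edgeR called the same 3 members (Itga5, Sdc4 and Itgb2). Such removal changes library totals and scaling only, so it does not test the part of the mitochondrial share. The targeted gene, Ffar2, had 1094 to 1404 counts in the floxed libraries and 38 to 76 in the Adipoq-F2-KO libraries. Its log2 fold change was -4.36 (adjusted p = 8.0e-06, edgeR). The adipocyte marker Adipoq was abundant in both genotypes, at 3608 ± 155 normalized CPM (SD, n = 3) against 3087 ± 519 (SD, n = 4), and the label of adipocytes fitted the 12 adipocyte markers, none of which was at 0. The 18 macrophage markers and the 12 endothelial markers were also present, at the sums given with the results they accompany.

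Among the 30 genes, Itga5, Sdc4 and the leukocyte chain Itgb2 were higher in the Adipoq-F2-KO libraries, and no member was lower past the test. Of the 30, 28 passed the filter on low counts, and Itgb6 and Itgb8 did not. The 3 genes called higher (edgeR's quasi-likelihood test, Benjamini-Hochberg adjusted p under 0.05 over 17039 genes) stand against a background of 0.798% of all tested genes called higher, and the 0 called lower against 0.217%. At an unadjusted p under 0.05, 14 members were higher and 2 lower, against 10.5% and 7.37% of all tested genes. In 9 members every Adipoq-F2-KO library lay above every FFA2 fl/fl library, where 8.86% of all tested genes did so, and in 1 member every one lay below, where 8.72% did. The log2 fold changes of the 28 had a median of 0.28, with 22 above 0 and 6 below. Over all tested genes the median was 0.00, with 50.4% above 0.

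**Figure D1:**
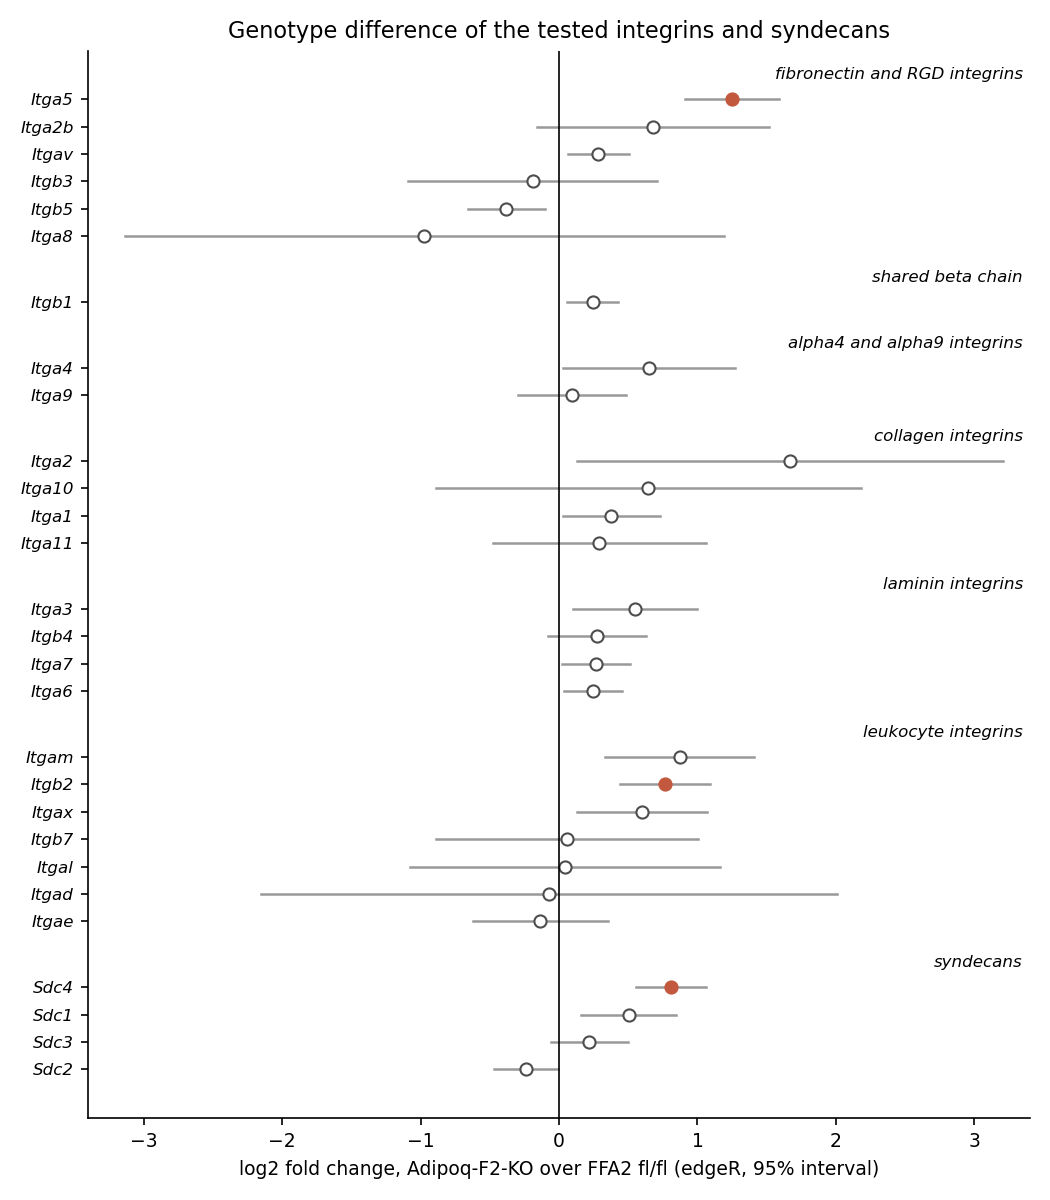
Log2 fold change of the 28 tested integrins and syndecans (x axis, Adipoq-F2-KO over FFA2 fl/fl), grouped by ligand; points are edgeR estimates, lines 95% intervals, and filled points genes with an adjusted p under 0.05. Itga5 (1.25), Sdc4 (0.81) and Itgb2 (0.77) are filled, and the wide lines belong to members with few counts, such as Itga8, Itga2 and Itgad.

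Itga5, the alpha5 chain of the fibronectin receptor (ENSMUSG00000000555, chromosome 15, 103252713 to 103275190 on the minus strand in the deposited table's coordinates), had the smallest p of the members. It had 999, 1432 and 1095 counts in FFA2 fl/fl libraries 1 to 3 and 2443, 2357, 2614 and 2822 in Adipoq-F2-KO libraries 1 to 4. After TMM normalization these were 26.7, 36.1 and 32.1 CPM against 61.3, 71.6, 72.3 and 95.7 CPM. Every Adipoq-F2-KO library lay far above the highest floxed library, and library 4 was the highest of all. The means were 31.6 ± 4.72 (SD, n = 3) and 75.2 ± 14.6 (SD, n = 4), and the log2 fold change was 1.25 (95% interval 0.91 to 1.59, standard error 0.16, edgeR adjusted p = 0.018), rank 5 by p among the 17039 tested genes. It lay between 1.11 and 1.36 with any 1 library omitted, and the call was lost without FFA2 fl/fl library 1 (adjusted p = 0.145, edgeR) and without library 3 (0.0567).

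Sdc4, the syndecan of focal adhesions (chromosome 2, 164266167 to 164285807, minus strand), was also higher in Adipoq-F2-KO. It had 138, 145 and 161 normalized CPM in the floxed controls and 229, 251, 309 and 246 in the knockouts. Again the genotypes did not overlap, and here library 3 was the highest. The means were 148 ± 11.8 (SD, n = 3) and 258.8 ± 34.96 (SD, n = 4). The log2 fold change of 0.81 (95% interval 0.55 to 1.06, standard error 0.115, edgeR adjusted p = 0.0258) had rank 13 by p. The log2 fold change kept between 0.71 and 0.88 over the fits that left out 1 library. The call was lost in 4 of them, without FFA2 fl/fl library 1 (adjusted p = 0.196, edgeR), 2 (0.0593) or 3 (0.075) and without Adipoq-F2-KO library 2 (0.0557).

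For Itga5, Sdc4 and Itgb2 alike, comparing the means by exact two-sided permutation gave an unadjusted p of 0.0286, the smallest that 3 libraries against 4 allow. It was computed for each of the 30 members. Itgav, Itgb1 and Itgb5, which edgeR did not call, reached the same p, Itgb5 with the lower mean in Adipoq-F2-KO. This p therefore does not set the called genes apart.

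**Figure D2:**
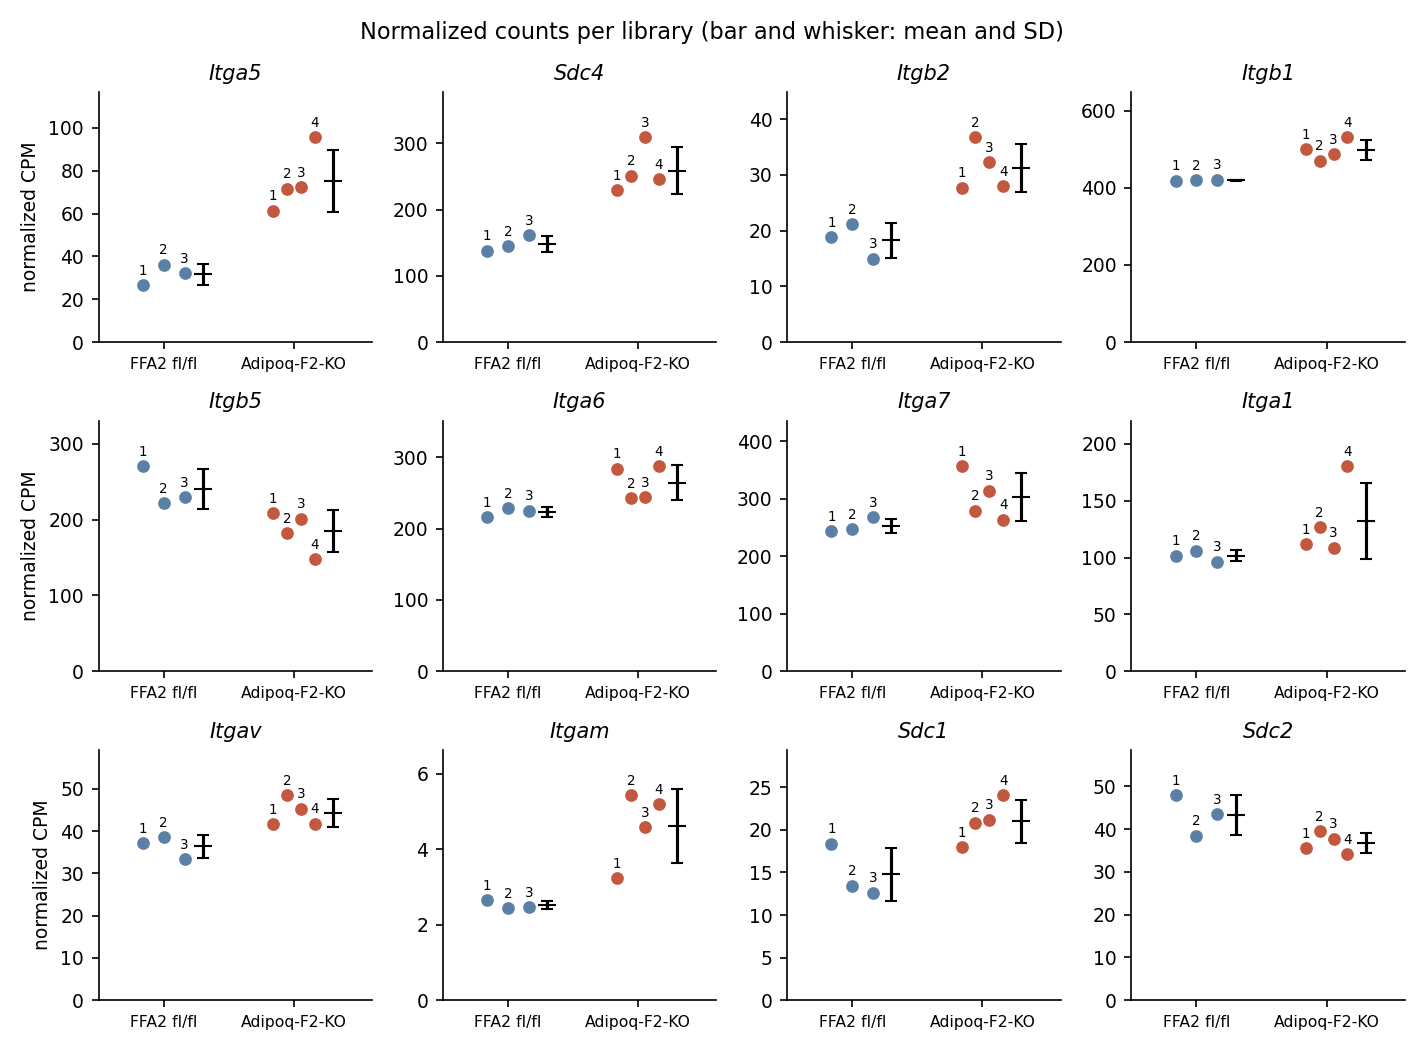
Normalized CPM (y axis, from 0) of 12 members in each library, with FFA2 fl/fl libraries 1 to 3 in blue and Adipoq-F2-KO libraries 1 to 4 in red; the bar and whisker give the mean and SD. The red points of Itga5, Sdc4 and Itgb2 stand clear of the blue ones, Itgb5 is the only gene shown with all red points below, and Sdc1, Sdc2 and Itga7 overlap.

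The promoters of Itga5 and Sdc4 are shown beside those of Itgb1, the partner chain of Itga5, and Itgb5, the only member with all Adipoq-F2-KO libraries below the floxed ones, so that genes with log2 fold changes of either sign can be read side by side. They are RefSeq windows of 250 bases before to 50 bases after the gene start on GRCm38.p6, printed 5′ to 3′ on the gene's strand. Itga5 is at chr15:103366742-103367041 (minus strand), Sdc4 at chr2:164443139-164443438 (minus), Itgb1 at chr8:128685404-128685703 (plus) and Itgb5 at chr16:33829415-33829714 (plus). Capitals mark matches, on either strand, to the short motifs named after them.
Itga5: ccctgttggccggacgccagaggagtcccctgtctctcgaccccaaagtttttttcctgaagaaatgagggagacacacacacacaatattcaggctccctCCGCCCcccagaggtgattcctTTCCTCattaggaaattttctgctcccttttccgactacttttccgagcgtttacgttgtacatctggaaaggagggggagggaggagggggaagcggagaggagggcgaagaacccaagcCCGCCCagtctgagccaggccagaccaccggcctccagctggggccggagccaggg
Sdc4: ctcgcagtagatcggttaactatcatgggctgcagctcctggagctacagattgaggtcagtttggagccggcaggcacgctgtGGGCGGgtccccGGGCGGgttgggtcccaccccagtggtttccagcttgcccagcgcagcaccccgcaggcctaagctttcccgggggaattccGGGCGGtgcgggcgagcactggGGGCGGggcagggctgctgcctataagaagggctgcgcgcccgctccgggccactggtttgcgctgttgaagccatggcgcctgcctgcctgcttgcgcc
Itgb1: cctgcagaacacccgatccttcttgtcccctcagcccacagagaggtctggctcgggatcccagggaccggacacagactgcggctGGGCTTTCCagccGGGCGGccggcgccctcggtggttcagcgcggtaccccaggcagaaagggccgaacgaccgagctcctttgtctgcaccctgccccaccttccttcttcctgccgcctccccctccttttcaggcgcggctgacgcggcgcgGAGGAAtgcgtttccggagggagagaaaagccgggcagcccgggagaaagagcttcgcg
Itgb5: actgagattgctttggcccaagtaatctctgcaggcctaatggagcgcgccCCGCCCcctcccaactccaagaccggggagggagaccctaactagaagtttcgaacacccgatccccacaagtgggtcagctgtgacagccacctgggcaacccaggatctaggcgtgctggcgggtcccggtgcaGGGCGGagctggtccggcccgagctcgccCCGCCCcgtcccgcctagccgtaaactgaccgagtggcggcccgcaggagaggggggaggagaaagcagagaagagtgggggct
The motifs searched were those of AP-1 (TGANTCA), NF-kB (GGNNTTTCC), SP1 (GGGCGG) and PU.1 (GAGGAA), where N is any base. None of the matches printed overlapped another. Itga5 held 2 SP1 and 1 PU.1 match, Sdc4 4 SP1 matches, Itgb5 3 SP1 matches, and Itgb1 1 match each for NF-kB, SP1 and PU.1. Of all 32851 windows in the table, 35.7% held the SP1 motif, 28.3% PU.1, 7.81% AP-1 and 5.82% NF-kB. Windows were found for 21 of the 30 members (23 windows, as Itga3 and Itgb6 had more than 1). Of these, 12 held SP1, 10 PU.1, 3 AP-1 and 1 NF-kB. Only these letter strings were searched, so a window without a match may still hold another form of such a site. The shares over all windows cover the same strings only. A match is a run of letters, and no binding was measured.

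The other fibronectin and RGD integrins lay on both sides of 0. Of the 8 members of this group, 6 were tested, 3 with a log2 fold change above 0 and 3 below, with a median of 0.05, and Itga5 was the only one called. Itgav, the alphav chain that pairs with several beta chains to bind vitronectin and fibronectin, had 37.2, 38.6 and 33.3 normalized CPM in floxed libraries and 41.6, 48.5, 45.3 and 41.8 in Adipoq-F2-KO. The libraries did not overlap, but the log2 fold change was small and did not pass the test (0.28, standard error 0.10, adjusted p = 0.178, edgeR).

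Itgb5, the beta chain of the vitronectin receptor alphavbeta5, ran the other way. Its libraries held 270.5, 221 and 229.7 normalized CPM in floxed libraries and 208, 182, 201 and 147 in Adipoq-F2-KO. All 4 Adipoq-F2-KO libraries lay below the floxed ones, with library 4 lowest, and the log2 fold change of -0.38 (95% interval -0.65 to -0.10) had an adjusted p of 0.155 (edgeR). Itga2b and Itgb3, the chains of the platelet fibrinogen receptor, were at 0.706 to 2.61 and 0.879 to 2.34 normalized CPM over the 7 libraries and overlapped between genotypes. Itga8, the nephronectin receptor chain of mesenchymal cells, did not exceed 0.854 normalized CPM and was at 0 in Adipoq-F2-KO library 1. Itgb6, an epithelial chain, was detected only in FFA2 fl/fl library 1 (20 counts) and Adipoq-F2-KO library 1 (2 counts), and Itgb8 reached at most 0.387 normalized CPM.

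Itgb1, the beta chain common to the matrix receptors, was the most abundant member per kilobase of summed exon length. It had 418, 420.3 and 421 normalized CPM in the floxed controls and 500.3, 469.7, 487 and 531 in the knockouts. The floxed libraries were nearly level, and each Adipoq-F2-KO library lay above them. The log2 fold change was 0.24 (standard error 0.08, 95% interval 0.06 to 0.43), with an adjusted p of 0.169 by edgeR and 0.0398 by DESeq2.

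The alpha4 and alpha9 chains bind VCAM-1, fibronectin or tenascin without the RGD motif, and neither was called. Itga4, a chain of leukocytes, had 2.62, 3.68 and 3.78 normalized CPM in floxed libraries and 3.06, 6.32, 5.25 and 6.48 in Adipoq-F2-KO, with library 1 inside the floxed range (log2 fold change 0.65, adjusted p = 0.262, edgeR). Of its exon bases, 8.04% overlap Cerkl on the other strand. Itga9 was at 9.35, 12.3 and 15.6 normalized CPM against 15.0, 11.4, 12.4 and 14.0, which overlapped throughout (log2 fold change 0.09, adjusted p = 0.824, edgeR).

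All 4 collagen integrins had log2 fold changes above 0 (0.29 to 1.67, median 0.51), and 0 were called by edgeR, with 2 at an unadjusted p under 0.05. DESeq2 called 0 but gave no adjusted p for Itga2 and Itga10; it gave one for 24 of the 30 members. Itga1, the collagen receptor chain most abundant here, had 102, 106 and 96.5 normalized CPM in floxed libraries and 112, 127, 109 and 181 in Adipoq-F2-KO. Library 4 stood well above the other Adipoq-F2-KO libraries, which also lay above the floxed range. Its log2 fold change was 0.38 (adjusted p = 0.245, edgeR) and 0.19 without Adipoq-F2-KO library 4. Itga2, the collagen receptor of platelets and epithelia, was rare, at 0.374, 0.454 and 0.0586 against 1.30, 0.668, 0.885 and 0.950 normalized CPM. These groups did not overlap, yet the 95% interval of its log2 fold change ran from 0.13 to 3.21 (adjusted p = 0.247, edgeR). Itga10 and Itga11, of chondrocytes and fibroblasts, were between 0.251 and 3.52 normalized CPM and overlapped. Of the exon bases of Itga10, 33.5% are shared with Gm42957 on the same strand, so its level is uncertain too.

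Itga7 and Itga6, the chains of laminin receptors, were the most abundant alpha chains in these libraries. The 4 members of the laminin group had log2 fold changes from 0.25 to 0.55 (median 0.27), of which 3 had an unadjusted p under 0.05 and 0 were called by edgeR or DESeq2. Itga7 had 244, 247 and 267 normalized CPM in floxed libraries and 357, 279, 314 and 264 in Adipoq-F2-KO, where library 4 fell within the floxed range (log2 fold change 0.26, adjusted p = 0.249, edgeR). Itga6 had 216, 228 and 225 against 284, 242, 244 and 287 normalized CPM. Its libraries did not overlap (log2 fold change 0.25, adjusted p = 0.208, edgeR). Itga3, a chain typical of epithelia, had 8.04, 12.1 and 12.9 normalized CPM against 19.9, 11.8, 15.8 and 16.9, and Adipoq-F2-KO library 2 lay below 2 floxed libraries (log2 fold change 0.55, adjusted p = 0.194, edgeR). Itgb4, the hemidesmosome chain, was at 6.74 to 10.5 normalized CPM over all libraries and overlapped.

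Among the 7 leukocyte integrins, Itgb2 alone was called. Itgb2, the beta chain of LFA-1, Mac-1 and related receptors, had 18.8, 21.1 and 14.9 normalized CPM in floxed libraries and 27.7, 36.8, 32.3 and 28.0 in Adipoq-F2-KO. Each Adipoq-F2-KO library exceeded each floxed one, with means of 31.2 ± 4.28 (SD, n = 4) and 18.3 ± 3.13 (SD, n = 3). The log2 fold change of 0.77 (standard error 0.15, edgeR adjusted p = 0.0411) lay between 0.65 and 0.88 with any 1 library omitted. The call was lost without FFA2 fl/fl library 1 (adjusted p = 0.207, edgeR), 2 (0.0599) or 3 (0.164) and without Adipoq-F2-KO library 2 (0.0698) or 3 (0.0751).

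Of the 4 alpha partners of Itgb2, 0 were called by edgeR, 2 had an unadjusted p under 0.05 and DESeq2 called 1. Itgam, the alpha chain of Mac-1 on macrophages and neutrophils, had 2.64, 2.45 and 2.46 normalized CPM in floxed libraries and 3.24, 5.44, 4.59 and 5.19 in Adipoq-F2-KO, without overlap (log2 fold change 0.87, adjusted p = 0.109 by edgeR and 0.0477 by DESeq2). Of its exon bases, 68.7% are shared with the predicted gene Gm49368 on the same strand, which had a mean count of 0. Counting options are not given, so reads in these bases may be missing from the counts, and the level of Itgam is uncertain. Itgax, the CD11c chain of dendritic cells and fat macrophages, had 8.14, 8.06 and 7.09 normalized CPM against 14.2, 14.7, 10.5 and 7.66, so that Adipoq-F2-KO library 4 was level with the controls (log2 fold change 0.60, adjusted p = 0.182, edgeR). Itgal, the LFA-1 chain of lymphocytes, spanned 0.586 to 4.94 normalized CPM in FFA2 fl/fl around 2.51 to 3.59 in Adipoq-F2-KO (log2 fold change 0.04), and Itgb7 and Itgae, chains of gut-homing and epithelial lymphocytes, likewise overlapped (0.06 and -0.13). Itgad was at or below 0.828 normalized CPM in every library. The log2 fold changes of the 7 had a median of 0.06, with 5 above 0 and 2 below.

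Summed markers of several other cell types were also higher in Adipoq-F2-KO. The 18 macrophage markers summed to 669 to 803 normalized CPM in floxed libraries and 881 to 1081 in Adipoq-F2-KO. Of the 17 tested, 14 had log2 fold changes above 0, and at an unadjusted p under 0.05 (edgeR) 10 were higher and 1 lower. Cd68 and Lyz2 were called higher by edgeR, at 0.72 and 0.69. The log2 fold changes of the 17 ran from -0.42 to 0.73 (median 0.47), beside 0.77 for Itgb2. DESeq2 called 7 of these markers higher. Over all 14342 genes with an adjusted p, DESeq2 called 670 higher and 220 lower. None of the macrophage markers was at 0 in all libraries. The 12 endothelial markers summed to 1304 to 1706 against 1766 to 2828 normalized CPM, all 12 with log2 fold changes above 0 (0.26 to 0.65) and 0 called by edgeR, with 9 at an unadjusted p under 0.05 and 5 called by DESeq2. The 10 mural and 12 fibroblast progenitor markers summed to 732 to 860 against 874 to 1553 and to 1633 to 1827 against 1829 to 2033, with 8 and 11 log2 fold changes above 0. Among the mural markers 3 were higher at an unadjusted p under 0.05, and 0 were called by edgeR or DESeq2. Among the fibroblast progenitor markers 5 were, edgeR called 1 (Icam1, also a leukocyte counter-receptor) and DESeq2 3 (Cd34, Fbn1 and Icam1). The 12 adipocyte markers summed to 42900 to 48170 against 33160 to 43760, 10 of 12 with log2 fold changes below 0, of which 5 had an unadjusted p under 0.05, edgeR called 0 and DESeq2 2. The 10 neutrophil markers summed to 3.98 to 5.83 against 4.28 to 6.03, with Ly6g at 0 counts in every library. The 14 T and NK cell markers summed to 3.53 to 10.6 against 6.40 to 7.36, and FFA2 fl/fl library 2 was highest in this sum, in Itgal and in Itgb7. The 10 markers of epididymal epithelium and germ cells summed to 111 in Adipoq-F2-KO library 2 and 20.2 in library 3, against 0 to 3.43 in the other 5 libraries, and of the 4 tested 3 were higher at an unadjusted p under 0.05, with 0 called by edgeR and 2 by DESeq2 (Prm1 and Prm2). The 10 mesothelial markers summed to 58.7 in FFA2 fl/fl library 1 and to 12.1 to 20.9 in the other 6, and of the 8 tested 1 was higher and 2 lower at an unadjusted p under 0.05, with 0 called by edgeR or DESeq2. All 8 B cell markers had log2 fold changes below 0, with sums of 619 to 718 against 357 to 709 and 0 called by edgeR or DESeq2 or at an unadjusted p under 0.05. The 7 dendritic cell markers summed to 11.5 to 25.8 normalized CPM in floxed libraries and 23.5 to 26.7 in Adipoq-F2-KO. All 6 tested had log2 fold changes above 0 (median 0.33), with 1 at an unadjusted p under 0.05 (edgeR). The 8 platelet markers summed to 5.22 to 6.65 against 6.58 to 13.2. All 3 tested lay above 0 (median 0.65), also with 1 at an unadjusted p under 0.05 (edgeR). Neither list had a gene called by edgeR or DESeq2. The 7 nerve and Schwann cell markers summed to 42.6 to 44.5 against 32.3 to 45.0, with 3 log2 fold changes above 0 and 3 below. The 15 dissociation-induced genes summed to 12430 to 15450 against 12670 to 14190, with 9 log2 fold changes above 0 and 6 below. Of these 15, 2 were higher at an unadjusted p under 0.05 (edgeR), and 0 were called by edgeR or DESeq2. In bulk samples, fewer cells of a type and less RNA per cell cannot be told apart. The part of RNA from these other cells in the differences of Itga5, Sdc4, Itgb2 and the other members was not tested.

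**Figure D3:**
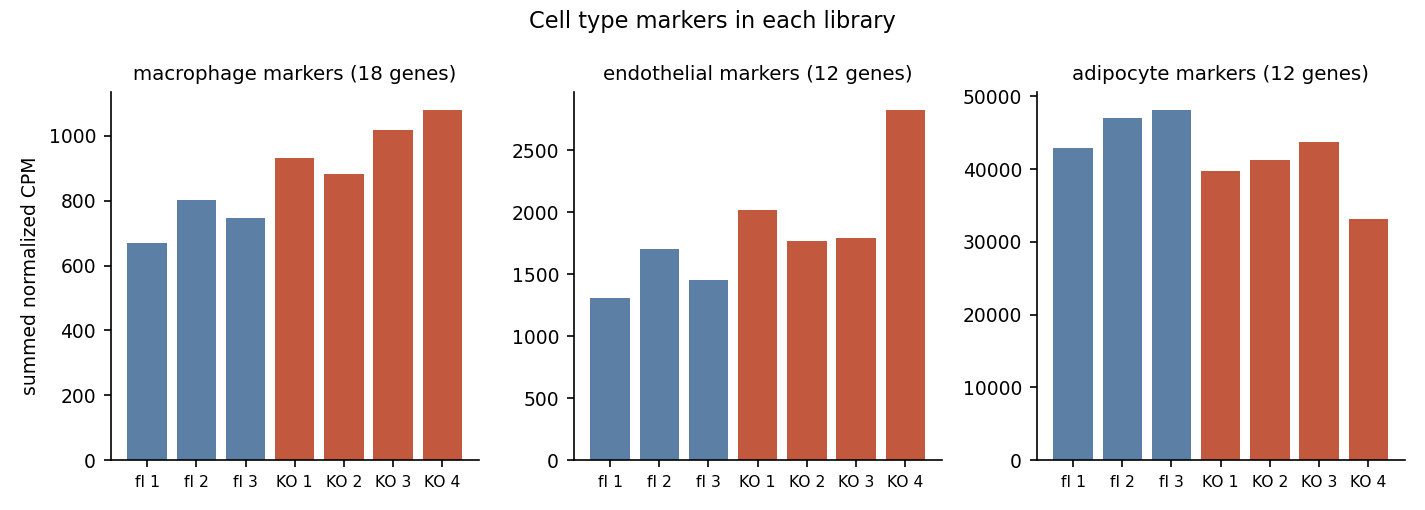
Summed normalized CPM (y axis, from 0, a scale of its own in each panel) of the macrophage, endothelial and adipocyte markers in each library, FFA2 fl/fl in blue and Adipoq-F2-KO in red. The macrophage and endothelial bars are higher in each Adipoq-F2-KO library, and library 4 has the highest endothelial (2828) and the lowest adipocyte sum (33160).

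The other 3 syndecans were called by neither edgeR nor DESeq2, and at an unadjusted p under 0.05 (edgeR) 1 was higher and 1 lower. Sdc1, the syndecan typical of epithelia and plasma cells, had 18.4, 13.5 and 12.6 normalized CPM in floxed libraries and 17.96, 20.8, 21.2 and 24.1 in Adipoq-F2-KO, where FFA2 fl/fl library 1 reached into the Adipoq-F2-KO range (log2 fold change 0.50, adjusted p = 0.135, edgeR). Sdc2, the mesenchymal syndecan, had 47.9, 38.5 and 43.4 normalized CPM against 35.5, 39.5, 37.8 and 34.1. The groups overlapped, and its log2 fold change of -0.24 lay on the other side of 0 (95% interval -0.47 to -0.01, adjusted p = 0.27, edgeR). Sdc3, the neuronal syndecan, was at 56.3 to 66.1 normalized CPM against 59.1 to 84.3 (log2 fold change 0.22, adjusted p = 0.394, edgeR).

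Levels of different genes were compared as normalized CPM per kilobase of summed exon length, averaged over all 7 libraries. This length takes in every annotated exon and can exceed that of a single transcript, so the order and the shares below are approximate. In this order Itgb1 came first (114), followed by Sdc4 (83.0), Itgb5 (58.7), Itga7 (34.6) and Itga6 (27.0). Itga5 took place 6 (11.5), next to Sdc3 (11.4) and Sdc2 (11.2), and ahead of Itgb2 (8.41) and Itga1 (6.39). Down to Itgb6 (0.0117), neighbours in the order overlapped over the libraries, with the exception of Itga6 and Itga5. By genotype, Itga5 was at 6.41 ± 0.958 CPM per kb in FFA2 fl/fl (SD, n = 3) and 15.3 ± 2.95 in Adipoq-F2-KO (SD, n = 4), and so had a mean below those of Sdc3 and Sdc2 in the former and above them in the latter, where its libraries still overlapped those of Sdc3.

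The makeup of the receptors is described by shares of these per-kb levels, with no test. Among the 12 alpha chains that pair with beta1, Itga5 took 7.58%, 9.59% and 8.37% in floxed libraries. In Adipoq-F2-KO it took 12.0%, 15.9%, 15.3% and 18.8%. Itga7 and Itga6 remained the largest shares, with means of 41.3% and 32.5% in floxed libraries and 37.9% and 29.3% in Adipoq-F2-KO. Among the 8 beta chains, Itgb5 took 40.9%, 35.6% and 37.1% in floxed libraries and 30.4%, 28.4%, 30.04% and 22.7% in Adipoq-F2-KO. The share of Itgb1 had a mean of 57.7% in floxed libraries and 65.5% in Adipoq-F2-KO. These 2 chains made up nearly all of the beta chain RNA in either genotype. Sdc4 took 65.0%, 69.0% and 71.6% of the syndecans in floxed libraries and 76.2%, 78.8%, 81.5% and 76.3% in Adipoq-F2-KO. Sdc2 had a mean share of 14.5% and 8.08%. The 7 leukocyte integrins, with Itgam at its uncertain level, made up 3.98% of the 26 integrins in floxed libraries and 5.42% in Adipoq-F2-KO. Shares within a set sum to 100%, so that a higher share of 1 chain lowers the others.

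**Figure D4:**
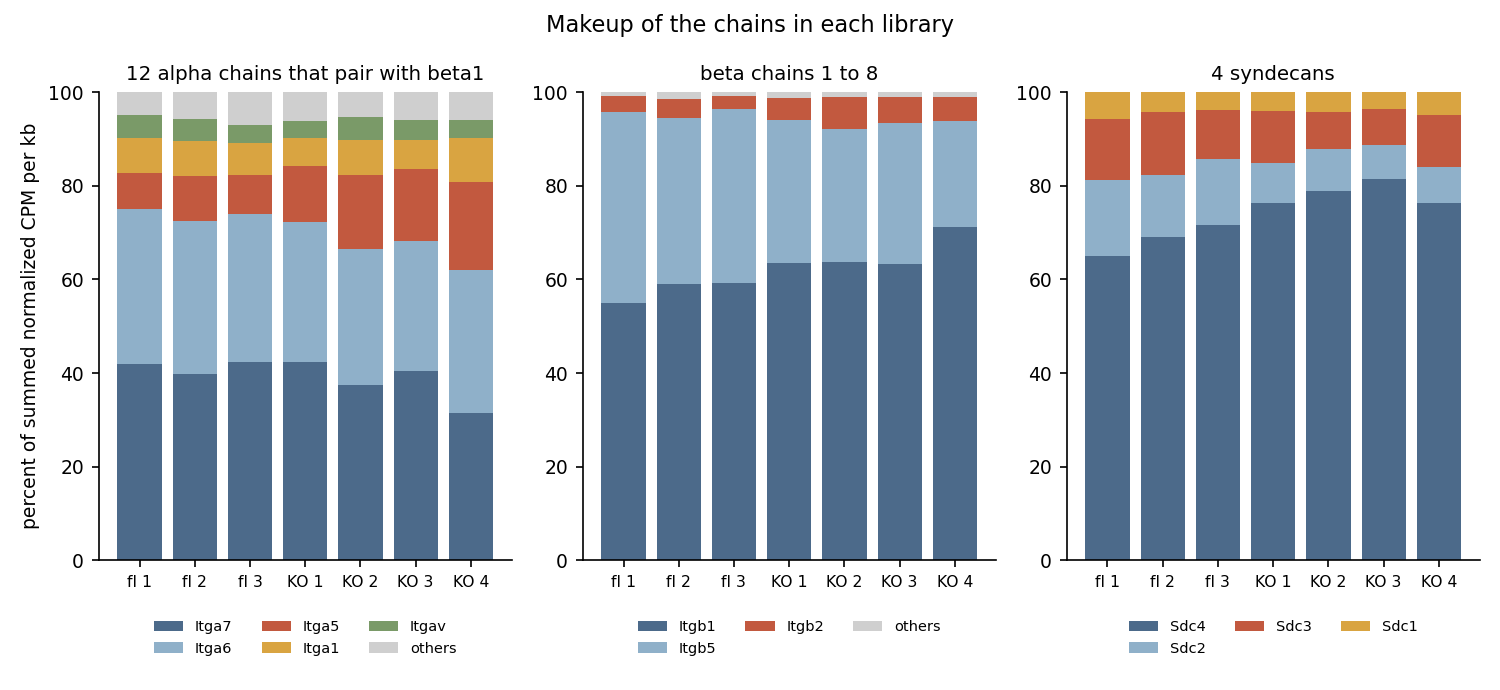
Percent of the summed normalized CPM per kb (y axis) taken by each chain in each library (x axis, fl for FFA2 fl/fl and KO for Adipoq-F2-KO), for the alpha chains that pair with beta1, the beta chains and the syndecans. The Itga5 band is wider in every Adipoq-F2-KO library (12.0% to 18.8% against 7.58% to 9.59%), the Itgb5 band narrower, and Sdc4 fills most of the third panel.

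Within-library ratios of these per-kb levels compare partners without the scaling between libraries. Of 11 ratios examined, 7 did not overlap between the genotypes, and 5 of these reached the smallest exact two-sided permutation p of 0.0286. With Benjamini-Hochberg adjustment over the 11, each of these 5 came to 0.0629, so none passed 0.05. The pairs were chosen with the single-gene results known. A ratio with Itga5, Sdc4, Itgb2 or Itgb5 therefore largely repeats the difference of that gene between the genotypes and is no separate support. Itga5 over Itgb1 was 0.0528, 0.0710 and 0.0630 in floxed libraries and 0.101, 0.126, 0.123 and 0.149 in Adipoq-F2-KO, a 2.00-fold higher mean. Itga5 over Itgav had means of 1.90 and 3.72, and Sdc4 over Sdc2 of 4.78 and 9.76. Ratios with Itgb5 were lower, at 0.658 against 0.430 over Itgb1 and 20.1 against 12.7 over Itgav. The ratios of the laminin receptor chains overlapped between the genotypes, with Itga6 over Itgb1 at a mean of 0.237 in both genotypes (exact permutation test, p = 1) and Itga7 over Itgb1 at 0.302 and 0.307 (p = 0.857, exact permutation test). The other 2 without overlap were Itgb2 over Itgb1, with means of 0.0583 and 0.0844 (exact permutation test, p = 0.0571, adjusted 0.105), and Sdc4 over Sdc3, with 5.62 and 8.59 (exact permutation test, p = 0.114, adjusted 0.179). For Sdc4 over Sdc1 the means were 15.5 and 18.5 (exact permutation test, p = 0.343), and for Itgav over Itgb1 0.0329 and 0.0340 (exact permutation test, p = 0.714).

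The ligands of the fibronectin and alpha4 or alpha9 integrins gave the list median furthest above 0 among the matrix ligands. Of 21 genes, 17 were tested, 14 with log2 fold changes above 0 and 3 below, with a median of 0.54, and 1 was called by edgeR and 5 by DESeq2 (Fbn1, Fn1, Lrrc32, Postn and Tnc). The gene called by edgeR was Tnc, tenascin-C, a ligand of alpha9 and alphav integrins, at 29.6, 34.5 and 36.3 normalized CPM in floxed libraries and 73.4, 81.9, 95.2 and 185 in Adipoq-F2-KO. All Adipoq-F2-KO libraries were above the floxed ones, and library 4 was by far the highest (log2 fold change 1.70, standard error 0.28, adjusted p = 0.0332, edgeR). Fn1, fibronectin itself, was at 122, 137 and 166 normalized CPM against 196, 268, 174 and 266, again without overlap, but its log2 fold change of 0.67 did not pass the test of edgeR (adjusted p = 0.0757), while DESeq2 called it. The call of Tnc was lost in 5 of the 7 fits that left out a library, with adjusted p (edgeR) of 0.196, 0.0627 and 0.132 without FFA2 fl/fl libraries 1, 2 and 3, and of 0.0557 and 0.0546 without Adipoq-F2-KO libraries 2 and 3.

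The ligands of the collagen and laminin integrins showed no called gene by edgeR. Of 13 collagen chains tested, 8 had log2 fold changes above 0 and 5 below (median 0.10), with 2 higher and 0 lower at an unadjusted p under 0.05 and 1 higher by DESeq2 (Col6a3). The smallest p in each direction belonged to Col6a3, of beaded filaments, with 0.51 (adjusted p = 0.0577, edgeR) and Col1a2, of fibrillar collagen, with -0.21 (adjusted p = 0.371). Of 11 laminin chains, 5 were above 0 and 6 below (median -0.03), with 2 higher and 0 lower at an unadjusted p under 0.05 and 1 higher by DESeq2 (Lama5). Smallest in p here were Lama5 with 0.54 (adjusted p = 0.124, edgeR) and Lama4, the main alpha chain around adipocytes, with -0.15 (adjusted p = 0.457).

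The counter-receptors of leukocyte integrins had log2 fold changes above 0 in 8 of 9 tested genes of 11, with a median of 0.64. At an unadjusted p under 0.05, 6 were higher and 1 lower, and edgeR called 1 and DESeq2 3 (F11r, Icam1 and Vcam1). Icam1, which binds LFA-1 and Mac-1, was called, at 69.7, 108 and 66.1 normalized CPM in floxed libraries and 146, 129.9, 205 and 247 in Adipoq-F2-KO. The genotypes did not overlap (log2 fold change 1.16, standard error 0.23, adjusted p = 0.0464, edgeR). Vcam1, the ligand of the alpha4 integrins, had 0.70 (adjusted p = 0.0792 by edgeR, called by DESeq2). The call of Icam1 held in 1 of the 7 fits with a library left out, without Adipoq-F2-KO library 1 (adjusted p = 0.0456, edgeR). In the others the adjusted p was 0.241, 0.0527 and 0.187 without FFA2 fl/fl libraries 1, 2 and 3, and 0.057, 0.0755 and 0.0523 without Adipoq-F2-KO libraries 2, 3 and 4.

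Inside the cell, integrins are linked to actin by talins, kindlins and other adaptors. Of 36 genes on this list 35 were tested, 20 with log2 fold changes above 0 and 15 below (median 0.07). DESeq2 called 5 higher and 3 lower, and the only one called by edgeR was Bcar1 (p130Cas), a docking protein phosphorylated on integrin engagement, at 61.4, 75.5 and 77.4 normalized CPM against 116, 99.0, 119 and 112. The genotypes stood apart (log2 fold change 0.64, standard error 0.11, adjusted p = 0.0332, edgeR). Without FFA2 fl/fl libraries 1, 2 and 3 its adjusted p was 0.201, 0.0609 and 0.104, and without Adipoq-F2-KO libraries 2 and 3 it was 0.0566 and 0.0605. Of 25 tested genes for syndecan partners and heparan sulfate assembly, 13 were above 0 and 12 below (median 0.01), and 0 were called by edgeR, with 4 in each direction at an unadjusted p under 0.05, 3 higher and 1 lower by DESeq2. The smallest p in each direction belonged to Hs3st3b1, a heparan sulfate sulfotransferase, with 1.36 (adjusted p = 0.0785, edgeR) and Ext2, which polymerises the heparan sulfate chain, with -0.29 (adjusted p = 0.102).

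Of 8 other transmembrane matrix receptors tested, 6 had log2 fold changes above 0 and 2 below (median 0.14). Cd44, the hyaluronan receptor, was called, at 12.5, 18.5 and 15.5 normalized CPM against 26.8, 30.7, 28.1 and 39.9. No floxed library reached the Adipoq-F2-KO range (log2 fold change 1.02, standard error 0.17, adjusted p = 0.0332, edgeR). The call was lost without FFA2 fl/fl libraries 1 and 3 (adjusted p = 0.196 and 0.135, edgeR) and without Adipoq-F2-KO libraries 2 and 3 (0.0603 and 0.0546).

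**Figure D5:**
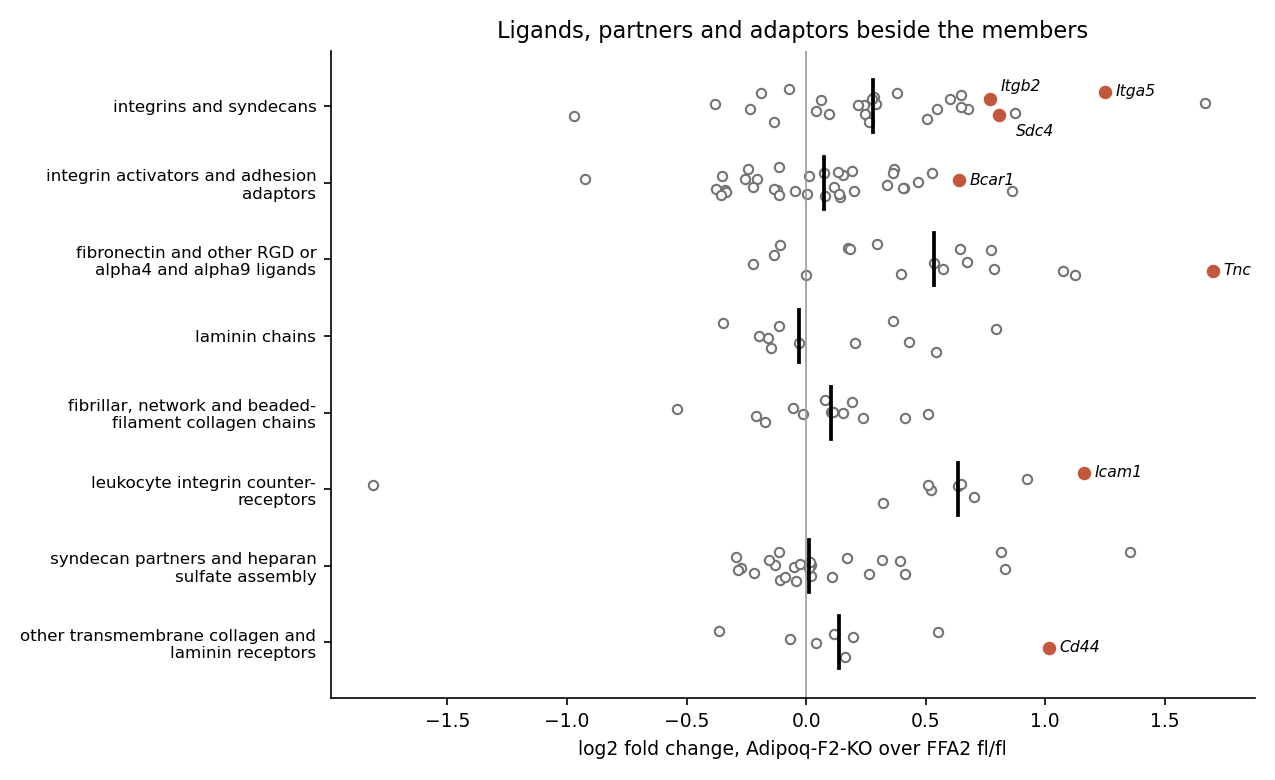
Log2 fold change (x axis, Adipoq-F2-KO over FFA2 fl/fl) of each tested gene in the members and in 7 lists of ligands, partners and adaptors; filled points are genes with an adjusted p under 0.05 (edgeR), and black bars are medians. The medians lie at 0.54 for the fibronectin, RGD and alpha4 or alpha9 ligands and 0.64 for the leukocyte counter-receptors, and between -0.03 and 0.14 for the other lists.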

How the data were processed

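RNA-Seq data of mature white adipocytes were used (3 floxed and 4 Adipoq-F2-KO mice, grouped by the labels). The deposited values are raw counts, which the authors made with Trimmomatic trimming, STAR alignment and featureCounts, with no normalization. Versions and counting options (strand, overlaps) are not given in the sources used here, so counts of overlapping genes are uncertain. The submitters' processing notes name GRCm38 and mm10, but only 1409 of 51992 nuclear genes had the start and end of a GRCm38 annotation (GENCODE M21), and 0 of the 30 members, so coordinates are given as deposited. Symbols were matched for 52029 of 57010 identifiers. Library totals were 30478997 to 39992605.

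The quasi-likelihood test of edgeR 4.0.16 in R 4.3.3 was run two-sided on genes kept by filterByExpr, with TMM scaling, no term but genotype, and Benjamini-Hochberg adjustment over 17039 genes. This departs from the DESeq2 test of the study, which was run as an alternative (DESeq2 1.42.0). Standard errors and intervals come from the F statistics of that fit. Normalized CPM are TMM-scaled. Ratios were compared with exact two-sided permutation tests. The scripts were tested on simulated data. Libraries of a genotype differed in pairs by more than sampling noise (chi-square over its degrees of freedom 41.5 to 165), so all 7 were kept as separate samples. The labels name them as separate samples but do not tie replicate numbers to a litter or day.

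The members, gene lists, motifs and ratios were chosen with earlier results of these data known. Values in every library are given for Itga5, Sdc4, Itgb1, called members, members at an unadjusted p under 0.05 and the most abundant member of each group, and pathway lists are given by their counts, medians, called genes or smallest p in each direction. Values by library for Fn1 were added outside this rule. Alternatives were DESeq2 size factors, the DESeq2 test, a filter of at least 1 count, removal of mitochondrial genes and the most abundant row, the replicate number as a block, and leaving out each library.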

Additional observations from a re-analysis of the deposited data

Results flagged for a closer look

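In the 4 Adipoq-F2-KO libraries, 33 items were checked for a library far from the others, and 1 was marked. The FFA2 fl/fl libraries were not checked in this way. The per-kb ratio of Itga5 over Itgav in Adipoq-F2-KO library 4 was 4.99, against 3.20, 3.21 and 3.48 in libraries 1 to 3, and its gap to the nearest of these exceeded Dixon's 95% critical value as a share of the whole range. Chance marks about 5% of such groups. The ratio was 1.56, 2.04 and 2.10 in FFA2 fl/fl, and the same library had the highest Itga5 and Tnc, the highest endothelial marker sum (2828 normalized CPM) and the lowest adipocyte marker sum (33160). The part of these in the ratio was not tested.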

How the results depend on the processing

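DESeq2 size factors in edgeR, and removal of mitochondrial genes and the most abundant row, left Itga5, Sdc4 and Itgb2 as the members called higher and 0 lower. The DESeq2 test called 890 of the 14342 genes with an adjusted p, 670 higher and 220 lower. These are the background of every DESeq2 count given here. Of the 24 members with an adjusted p it called 5 higher, adding Itgam (log2 fold change 0.88, adjusted p = 0.0477) and Itgb1 (0.25, adjusted p = 0.0398). When genes needed only 1 count to be tested, 1403 were called, with 7 members called higher (also Itga1, Itga3, Itgax and Sdc1) and 1 lower, Itgb5 (-0.38, adjusted p = 0.0322 by edgeR). The cause of these differences was not tested. Scaling by size factors moved the median of all genes by 0.0045 (edgeR) and 0.0038 (DESeq2).

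With each library left out in turn, all genes called ranged from 1 to 178, members called higher from 0 to 3 and lower from 0 to 0. There were 0 members called without FFA2 fl/fl library 1 or 3, 1 without FFA2 fl/fl library 2 or Adipoq-F2-KO library 2, 2 without Adipoq-F2-KO library 3, and 3 without Adipoq-F2-KO library 1 or 4. All genes called numbered 1, 41 and 5 without FFA2 fl/fl libraries 1, 2 and 3 and 178, 11, 20 and 166 without Adipoq-F2-KO libraries 1 to 4. Members with no call changed sign within the leave-out ranges of Itga9 (-0.07 to 0.30), Itgad (-0.55 to 1.19), Itgb7 (-0.25 to 0.73), Itgb3 (-0.48 to 0.15) and Itgal (-0.42 to 0.75). The single values past 0 were -0.0743 for Itga9, 1.19 and 0.26 for Itgad, -0.25, -0.10 and -0.05 for Itgb7, 0.15 for Itgb3, and -0.42 and -0.08 for Itgal. The ratio of Itga5 over Itgb1 stayed 1.86 to 2.16 times as high and that of Itgb5 over Itgb1 0.627 to 0.708 times, in leave-out values chosen after seeing the data.

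Samples sharing a replicate number had correlations of deviations of 0.0315, -0.0242 and -0.0203. Pairs with different numbers ranged from -0.0957 to 0.0861. With so few libraries, these values cannot decide what the number stands for beyond naming a mouse. With the replicate block, edgeR called 224 genes and 3 members higher, Itgad changed sign (0.80, adjusted p = 0.805), and Icam1 fell short of the call (0.99, adjusted p = 0.0678). The block changed no other call among the genes named with their leave-out values.

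Depth limits Itga2, Itga8, Itga10, Itgad, Itgb6 and Itgb8, which did not exceed 1.425 normalized CPM, where a count of 0 allows up to 0.15 to 0.197.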
